A study of Mus musculus with 2 samples.

Results

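Fibroblast growth factor (FGF) signalling genes were described in total RNA of the limb of mouse embryos of strain B6NCrl at 15.5 days. The set was defined by gene symbol, with no threshold on a measured value. Among its 45 symbols were the FGF ligands, their receptors and co-receptors, and the adaptors that carry the signal from the receptor. The others among the 45 were the feedback inhibitors and the factors Etv1, Etv4 and Etv5. A row was found for 44 of the 45 symbols among 43346 mouse genes in the deposited tables, and Spry3 was not analysed here. There was 1 group, limb of healthy embryos with no treatment named, with 2 biological replicates. Replicate 1 was a pool of 78 embryos and replicate 2 a pool of 62 embryos, each of both sexes. Forelimb and hindlimb are not told apart in the labels. Since each library is a pool, differences between single embryos cannot be seen, and every library mixes all cell types of the limb.

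An FGF ligand binds its receptor tyrosine kinase together with heparan sulfate at the cell surface. The activated receptor phosphorylates the adaptor Frs2, which links it to Ras and the ERK kinases, and ERK signalling raises transcription of Etv4 and Etv5 and of inhibitors such as the Sprouty proteins and Dusp6 that dampen the same pathway. In the early limb bud, Fgf8 and Fgf4 from the apical ectodermal ridge and Fgf10 from the mesenchyme beneath it sustain each other and drive outgrowth. Later, Fgf18 and Fgfr3 are known for restraining the growth of cartilage, and Fgf7 and Fgf10 for signalling from mesenchyme to epithelium.

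Receptor specificity is set by splicing. In Fgfr1, Fgfr2 and Fgfr3, the second part of the third immunoglobulin-like domain comes from either of a pair of exons, IIIb or IIIc, of which a mature transcript normally holds 1. The IIIb form of Fgfr2 is typical of epithelium and binds Fgf7 and Fgf10, and the IIIc forms are typical of mesenchyme and bind ligands such as Fgf9 and Fgf18. The IIIb exon of Fgfr2 and both exons of Fgfr3 are shown because the receptor results rest on telling such exons apart. They were read from the GENCODE M21 transcript sequences (GRCm38), 5′ to 3′ on the strand of the gene, and the capitals mark the codon of the only cysteine that each exon encodes in its reading frame.
Fgfr2 IIIb: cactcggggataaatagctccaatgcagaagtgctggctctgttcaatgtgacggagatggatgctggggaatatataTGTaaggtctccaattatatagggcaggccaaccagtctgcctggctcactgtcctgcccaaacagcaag
Fgfr3 IIIb: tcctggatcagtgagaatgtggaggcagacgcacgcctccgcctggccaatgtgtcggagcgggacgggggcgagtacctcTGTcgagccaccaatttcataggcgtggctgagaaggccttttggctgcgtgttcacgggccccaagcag
Fgfr3 IIIc: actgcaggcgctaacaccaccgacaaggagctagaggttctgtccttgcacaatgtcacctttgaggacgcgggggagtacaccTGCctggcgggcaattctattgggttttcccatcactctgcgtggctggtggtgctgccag

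All 3 are internal coding exons. The IIIb exon of Fgfr2, on the minus strand, lies at chr7:130199758-130199905 and is 148 bases long. Those of Fgfr3, on the plus strand, lie at chr5:33731281-33731431 (IIIb, 151 bases) and chr5:33732117-33732261 (IIIc, 145 bases). In pairwise alignment the IIIb exon of Fgfr3 was 54.8% identical to the IIIb exon of Fgfr2 and 50.6% identical to the IIIc exon of its own gene.

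The deposited tables hold 35104685 expected counts for replicate 1 and 41757268 for replicate 2. Levels are given as TPM, an abundance corrected for transcript length and library size, so levels of different genes can be compared. The labelled tissue was checked against marker lists. Cartilage markers summed to 1248 and 1299 TPM in replicates 1 and 2, epidermis markers to 4097 and 3889 TPM, and limb mesenchyme markers to 306.0 and 330.4 TPM, with every marker of these lists at 1 TPM or more in both libraries. The forelimb factor Tbx5 had 16.04 and 12.02 TPM in replicates 1 and 2, and the hindlimb factors Tbx4 and Pitx1 had 12.59 and 18.02 TPM and 19.11 and 30.78 TPM. Of the 7 limb mesenchyme markers, 3 (Twist1, Pitx1 and Hoxd13) were over 1.5-fold higher in replicate 2. Of the 4 hypertrophic cartilage markers, Mmp13 was over 1.5-fold higher in replicate 1 (28.12 and 11.79 TPM) and Ihh in replicate 2 (4.04 and 6.76 TPM). The 9 muscle markers summed to 4388 and 1224 TPM in replicates 1 and 2, and all 8 with a mean of at least 1 TPM were over 1.5-fold higher in replicate 1. Osteoblast markers summed to 477.7 and 283.8 TPM, with 3 of 5 over 1.5-fold higher in replicate 1. Of the markers of other organs, 2 of 8 passed 1 TPM in both libraries, Afp at 3.41 and 21.45 TPM and Alb at 2.14 and 10.28 TPM in replicates 1 and 2, while the kidney marker Umod was at 0 in both.

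Of the 44 genes, 31 (70.5%) had at least 1 TPM in both libraries, against 62.7% of all protein-coding genes. At least 10 TPM in both was found for 17 of the 44, against 8878 of all 21474 protein-coding genes. A mean under 1 TPM was found for 11 of the 44, against 7733 of the 21474. Of these 11, 8 were ligands, 2 were klotho co-receptors and 1 was the intracellular Fgf14. The layers of the pathway differed in how fully they were expressed. All 5 receptors, both adaptors, all 8 feedback inhibitors with a row and all 3 Etv factors had at least 1 TPM in both libraries, against 8 of 15 secreted ligands and 0 of 3 hormone-like ligands. The plot of levels by role shows this spread, from over 100 TPM for Fgfr1 in replicate 2 to 0 for Fgf15 in both libraries.

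**Figure D1:**
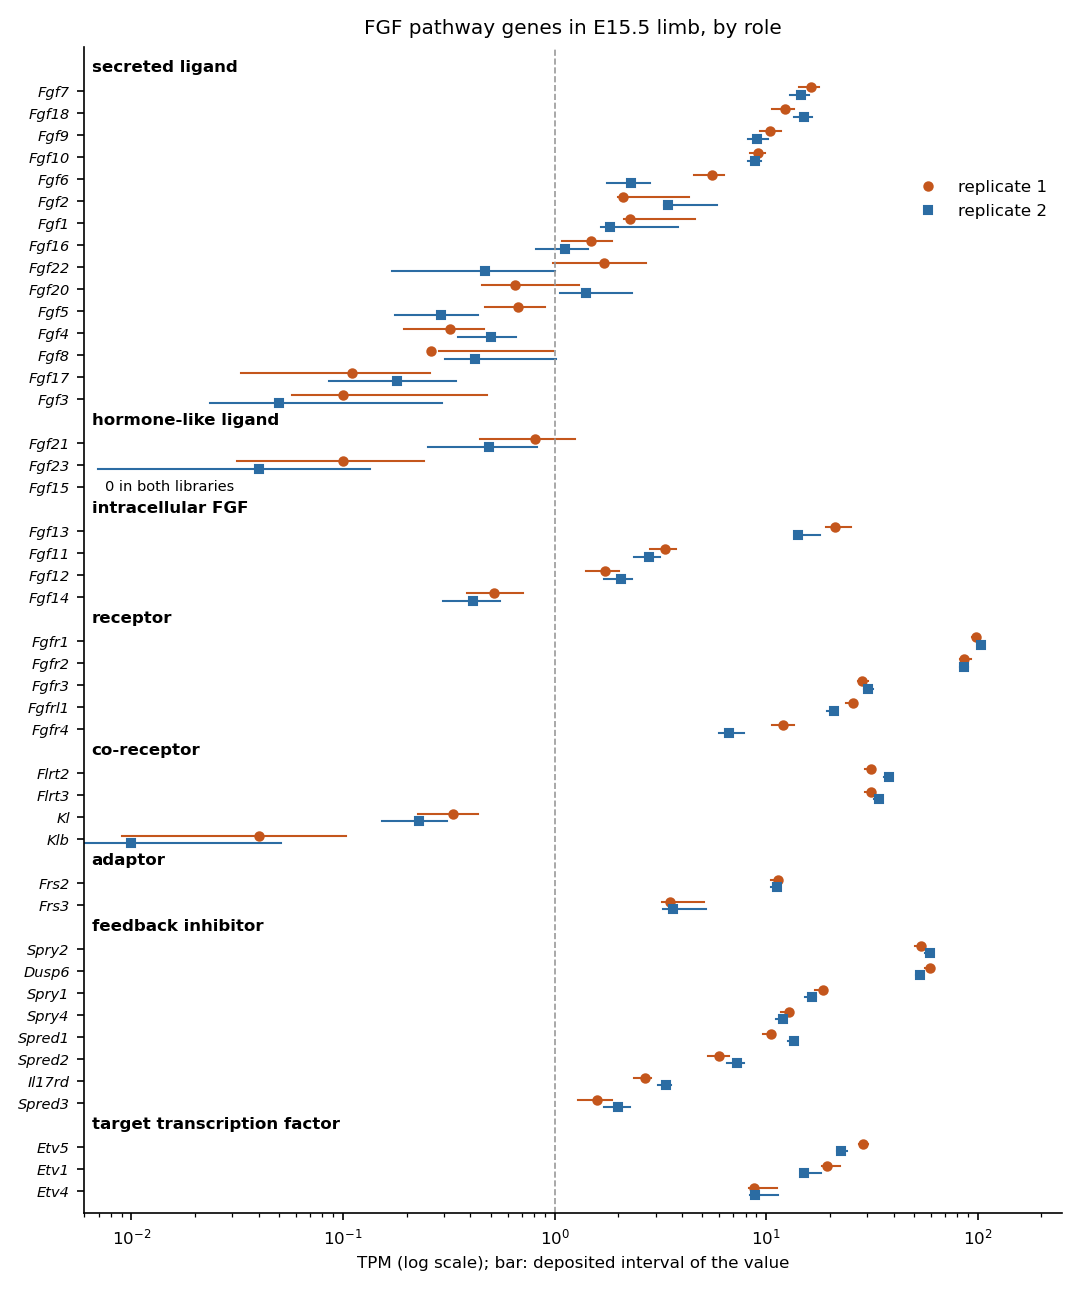
TPM of the 44 genes in replicate 1 (circles) and replicate 2 (squares) on a log axis, grouped by role and ordered by mean, with the deposited interval of each value as a bar and 1 TPM as a dashed line. Receptors, feedback inhibitors and Etv factors lie above 1 TPM, and the ligands span from 0 to 16.30 TPM. The deposited intervals were made around a posterior mean, so a point can lie at or beyond the end of its bar.

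Among the secreted ligands, 4 stood above the rest. Fgf7, a ligand made by mesenchyme that acts on epithelium, had 16.30 and 14.62 TPM in replicates 1 and 2. Fgf18, known for its part in cartilage and bone growth, had 12.22 and 15.13 TPM. Fgf9, which acts on mesenchyme and growing cartilage, had 10.42 and 9.05 TPM, and Fgf10, the mesenchymal ligand needed for limb outgrowth, had 9.13 and 8.82 TPM. Fgf7 was above Fgf18 in replicate 1 and below it in replicate 2. Fgf18 was above Fgf9, and Fgf9 above Fgf10, in both libraries, but the ranges of Fgf9 and Fgf10 overlapped.

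Fgf7 and Fgf10 belong to 1 subfamily and signal mainly through IIIb receptors. Fgf7 exceeded Fgf10 in both libraries, with a log2 ratio of Fgf10 over Fgf7 of −0.83 in replicate 1 and −0.72 in replicate 2 (mean −0.78 ± 0.08, SD, n = 2). This order is per transcript length: Fgf10, which has the longer transcript, had more expected counts (805 and 947) than Fgf7 (713 and 782), so the order is reversed on raw counts. Fgf18 over Fgf9 had a log2 ratio of 0.23 and 0.74 in replicates 1 and 2 (mean 0.48 ± 0.36, SD, n = 2), and on raw counts this order too is reversed, with 269 and 407 counts for Fgf18 against 408 and 456 for Fgf9. At the transcript level Fgf10-201 held 98.4% and 97.8% of the TPM of Fgf10 in replicates 1 and 2. Of Fgf7, 56.6% and 58.9% came from the coding transcript Fgf7-201 and 31.0% and 31.5% from Fgf7-203, which is annotated as a processed transcript with no coding sequence. The leading transcripts of both genes were level, with 9.22 and 8.61 TPM for Fgf7-201 and 8.98 and 8.62 TPM for Fgf10-201. What Fgf7-201 and Fgf7-203 left lay in the last of the 3 transcripts of Fgf7, which is not described here. The higher TPM of Fgf7 thus rests largely on Fgf7-203, with 5.06 and 4.61 TPM on 85.13 and 94.84 counts.

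A second tier of secreted ligands lay between 1 and 4 TPM on average. Fgf6, a ligand known from developing skeletal muscle, had 5.54 and 2.30 TPM in replicates 1 and 2. Fgf2, a ligand without a signal peptide that is stored in the matrix, had 2.11 and 3.45 TPM. Fgf1, the other member of its subfamily and also without a signal peptide, had 2.28 and 1.82 TPM. Fgf2 and Fgf1 changed places between the libraries, with a log2 ratio of Fgf2 over Fgf1 of −0.11 in replicate 1 and 0.89 in replicate 2. Fgf16, a relative of Fgf9, had 1.48 and 1.12 TPM. Fgf22, a relative of Fgf7, had 1.72 and 0.47 TPM, and Fgf20, the remaining relative of Fgf9, had 0.65 and 1.41 TPM, so each passed 1 TPM in only 1 library. The overlap of ranges leaves the order of Fgf6 and Fgf2, of Fgf2 and Fgf1, of Fgf16 and Fgf22, and of Fgf22 and Fgf20 undecided.

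The ligands of the apical ectodermal ridge were low at this stage. Fgf8, the chief ridge ligand, had 0.26 TPM (6 expected counts) in replicate 1 and 0.42 TPM (7 counts) in replicate 2. Fgf4, which is induced in the ridge during outgrowth, had 0.32 and 0.50 TPM, and Fgf17, a relative of Fgf8, had 0.11 and 0.18 TPM. Fgf9, which is expressed in the ridge and elsewhere, had the level of 10.42 and 9.05 TPM given above. Fgf5, known for ending the growth phase of hair follicles, had 0.67 and 0.29 TPM, and Fgf3 had 0.10 and 0.05 TPM on 5 and 3 counts. These 5 genes rest on 3 to 40 counts in a library, and no order is read from them.

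The hormone-like ligands act at a distance and need a klotho protein as co-receptor. Fgf21, a hormone made chiefly by liver, had 0.81 and 0.49 TPM in replicates 1 and 2. Fgf23, a bone hormone that controls phosphate, had 0.10 and 0.04 TPM on 4 and 2 counts. Fgf15, made by the embryonic brain and the intestine, had 0 counts in both libraries, which allows up to 3 counts or 0.0786 and 0.0644 TPM in replicates 1 and 2. The co-receptors were as low: Kl had 0.33 and 0.23 TPM and Klb 0.04 and 0.01 TPM. No ligand and no co-receptor of the hormone-like branch reached 1 TPM in either library. These limits cover counting error only, because amplified reads are not independent molecules.

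Several of these genes are neighbours in the genome. Fgf3 at chr7:144838083-144844436 ends 2.93 kb before Fgf4 at chr7:144847367-144865243, and Fgf15 at chr7:144896531-144900953 follows 31.3 kb further on. All 3 genes of that stretch were under 1 TPM in both libraries. On chromosome 6, Fgf6 (chr6:127015586-127028187) and Fgf23 (chr6:127072902-127081408) are 44.7 kb apart, and here Fgf6 had 5.54 and 2.30 TPM where Fgf23 had 0.10 and 0.04 TPM.

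By subfamily, the Fgf7 group led the 18 secreted and hormone-like ligands with 27.25 of 64.22 TPM in replicate 1 and 23.96 of 60.16 TPM in replicate 2, a share of 41.1 ± 1.84% (SD, n = 2). The Fgf8 group, nearly all of it Fgf18, held 22.9 ± 4.63% and the Fgf9 group 19.4 ± 0.21%. The Fgf1 group held 7.80 ± 1.36%. The Fgf4 group, mostly Fgf6, held 10.2% in replicate 1 and 5.14% in replicate 2. The hormone-like group held 1.15 ± 0.38%. The shares of the Fgf8 and Fgf9 groups were 19.6% and 26.2% for the first and 19.5% and 19.3% for the second in replicates 1 and 2: the groups were level in replicate 1 and apart in replicate 2.

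**Figure D2:**
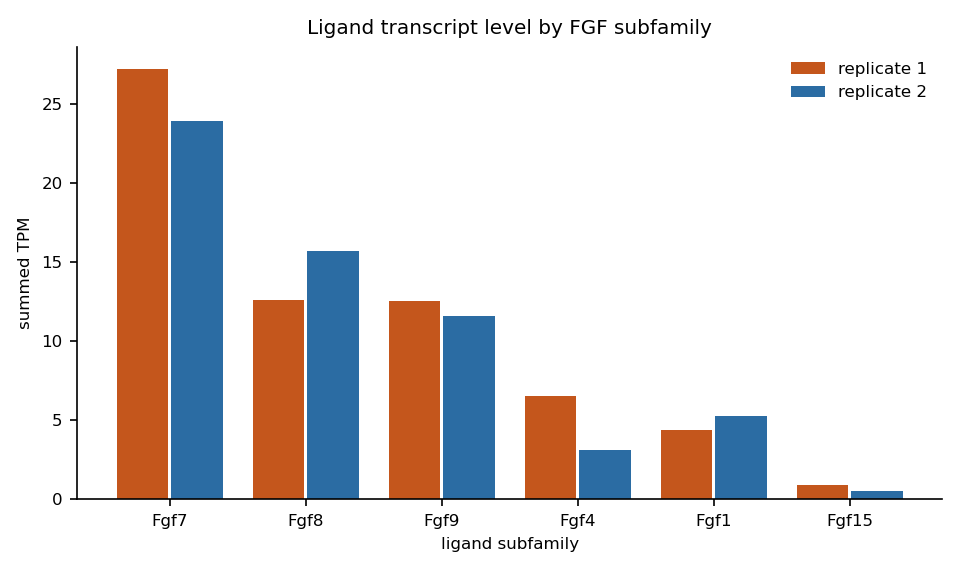
Summed TPM of the ligand genes of each subfamily in replicate 1 (left bars) and replicate 2 (right bars), named by the subfamily's first gene, with Fgf15 standing for the hormone-like group. The Fgf7 group is highest in both libraries at 27.25 and 23.96 TPM, and the Fgf4 group differs most in proportion among those over 1 TPM, at 6.53 and 3.09 TPM.

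The 4 FGF homologous factors, Fgf11 to Fgf14, are FGFs by sequence but stay inside the cell, bind sodium channels and do not signal as secreted ligands, so they were kept apart. Fgf13 had 21.12 and 14.21 TPM in replicates 1 and 2, above every secreted ligand in replicate 1. Fgf11 had 3.33 and 2.78 TPM, Fgf12 had 1.74 and 2.05 TPM, and Fgf14 had 0.52 and 0.41 TPM. Fgf13 was over Fgf12 by 11.5-fold and 6.66-fold in replicates 1 and 2. The 1.48-fold difference of Fgf13 between the libraries lay just under the 1.5-fold limit used below. Its expected counts were 720 and 729, a depth-scaled ratio of 1.18, which is smaller than the TPM difference. The leading transcript in replicate 1 was Fgf13-202, with 31.7% of the TPM there and 4.72% in replicate 2. The 2499-base transcript Fgf13-201, which led in replicate 2, took 27.1% and 44.7% of the TPM, and the 575-base Fgf13-205 took 22.1% and 16.7%. Markers of neurons, in which these factors are best known, summed to 33.1 and 34.96 TPM, and their part in the level of Fgf13 was not tested.

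Fgfr1, Fgfr2 and Fgfr3 stood above every ligand in both libraries, and Fgfr4 did not. Fgfr1, the main receptor of mesenchyme, had 97.64 and 103.81 TPM in replicates 1 and 2, and 92.7% of protein-coding genes had a lower mean. Fgfr2, which serves epithelium in its IIIb form and skeletal mesenchyme in its IIIc form, had 86.39 and 85.68 TPM. Fgfr3, the receptor of growing cartilage, had 28.48 and 30.35 TPM, and Fgfr4, a receptor known from muscle precursors and liver, had 11.95 and 6.71 TPM. Fgfrl1, which binds ligands but lacks the kinase domain, had 25.84 and 20.97 TPM. The order Fgfr1, Fgfr2, Fgfr3, Fgfrl1, Fgfr4 held in both libraries with no overlap between neighbours.

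Of the kinase receptor TPM, Fgfr1 held 44.7 ± 1.64%, Fgfr2 38.2 ± 0.47%, Fgfr3 13.0 ± 0.50% and Fgfr4 4.14 ± 1.67% (SD, n = 2). Fgfr1 over Fgfr2 was 1.13-fold and 1.21-fold in replicates 1 and 2, and Fgfr1 over Fgfr3 was 3.42-fold and 3.41-fold. The 4 kinase receptors summed to 224.5 and 226.6 TPM, which is 3.63 ± 0.19 times the summed TPM of the 18 ligands (SD, n = 2). These values count all transcripts of each gene. For Fgfr2 that takes in 48.66 and 42.25 TPM of transcripts with neither a IIIb nor a IIIc exon, a limit that the SD does not cover.

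The 3 receptors with a IIIb and a IIIc exon differed in which form they used. Fgfr1 was almost wholly IIIc: its IIIc transcripts summed to 80.65 and 85.62 TPM in replicates 1 and 2, against 2.28 and 2.39 TPM for IIIb. The IIIc share of the TPM in classed transcripts was 97.25% and 97.28%. Fgfr2 was evenly divided, with 18.15 and 22.91 TPM of IIIc against 19.58 and 20.51 TPM of IIIb. Its IIIc share was 48.1% in replicate 1 and 52.8% in replicate 2 (mean 50.4 ± 3.29%, SD, n = 2), so neither form led in both libraries. On expected counts, which weight long transcripts, IIIc led in both, with a share of 58.6% and 63.3%. Fgfr3 lay between on TPM, with 15.78 and 15.20 TPM of IIIc against 9.97 and 11.71 TPM of IIIb, and a IIIc share of 61.3% and 56.5% (58.9 ± 3.39%). On TPM the IIIc shares of Fgfr2 and Fgfr3 did not overlap, with 52.8% as the higher value of Fgfr2 and 56.5% as the lower value of Fgfr3. On expected counts they overlapped, since Fgfr3 had 60.7% and 56.2%, and the mean of Fgfr3 (58.4%) lay below that of Fgfr2 (60.9%), so the order of these receptors depends on the unit.

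**Figure D3:**
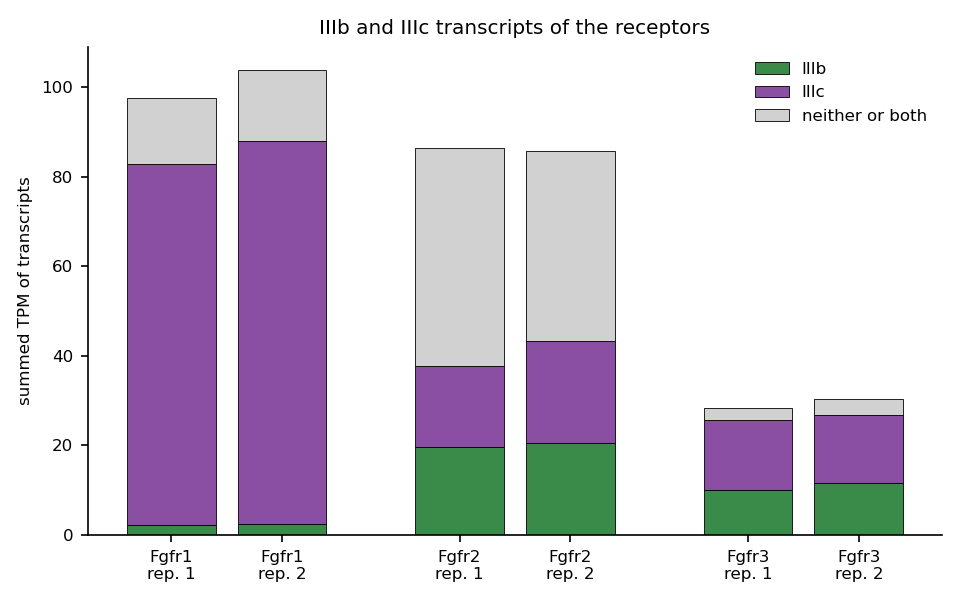
Summed TPM of transcripts with the IIIb exon, with the IIIc exon, and with neither or both, stacked for Fgfr1, Fgfr2 and Fgfr3 in replicate 1 (left) and replicate 2 (right). Fgfr1 is IIIc in both libraries, Fgfr2 and Fgfr3 hold both forms, and the transcripts of Fgfr2 with neither exon make up 56.3% and 49.3% of that gene.

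The classed part of each gene differs, and this limits the comparison for Fgfr2. Of the TPM of Fgfr1, 15.1% and 15.2% lay in transcripts with neither or both exons, mostly Fgfr1-206, a retained-intron transcript with both (10.23 and 10.00 TPM). Of Fgfr2, 56.3% in replicate 1 and 49.3% in replicate 2 lay in transcripts with neither exon. The most abundant transcript of the gene was among these: Fgfr2-217, with 21.60 and 21.84 TPM, shares in GENCODE M21 only the last 5 exons with the receptor transcripts. Exons of Fgfr2 overlap those of Ctbp2 on the same strand, and whether Fgfr2-217 took up reads of Ctbp2 was not tested. Fgfr2-226, annotated for nonsense-mediated decay and joining the exons on either side of IIIb and IIIc, had 9.66 and 8.15 TPM. Without Fgfr2-217, Fgfr2 stood at 64.79 and 63.83 TPM, still second to Fgfr1. Counting only transcripts with a IIIb or IIIc exon, Fgfr1 had 82.93 and 88.01 TPM, Fgfr2 had 37.73 and 43.42 TPM and Fgfr3 had 25.75 and 26.91 TPM. On that basis Fgfr1 exceeded Fgfr2 by 2.20-fold and 2.03-fold, against 1.13-fold and 1.21-fold over all transcripts, so the near-equality of the 2 genes depends on counting the partial transcripts.

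Few transcripts carried most of each form. Fgfr1 IIIc came from Fgfr1-202 (38.41 and 39.83 TPM), Fgfr1-203 (26.18 and 29.24 TPM) and Fgfr1-201 (16.06 and 16.55 TPM), and Fgfr1 IIIb from Fgfr1-214 alone, whose deposited intervals ran from 0.576 to 2.68 TPM in replicate 1 and from 0.544 to 2.81 TPM in replicate 2. The main IIIc transcript of Fgfr2 was Fgfr2-207 with 17.30 and 19.79 TPM. Of its IIIb transcripts, Fgfr2-211 had 12.62 and 10.96 TPM and Fgfr2-208 had 4.27 and 8.56 TPM. The interval of Fgfr2-208 in replicate 1, from 0.00705 to 5.72 TPM, shows how loosely the reads fix the level of that transcript. Between the libraries the sum of the IIIb form differed less than Fgfr2-208 did, at 19.58 and 20.51 TPM. No interval was computed for the sum, so how well the reads fix it is not known. Fgfr3 IIIb was nearly all Fgfr3-211 (9.97 and 11.69 TPM), and the leading IIIc transcript was Fgfr3-209 (7.43 and 9.41 TPM).

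Over the 3 receptors, IIIb transcripts summed to 31.83 and 34.61 TPM in replicates 1 and 2, which is 21.7% and 21.9% of the classed TPM. Fgfr2 supplied 61.5% and 59.3% of this IIIb total, Fgfr3 31.3% and 33.8%, and Fgfr1 7.16% and 6.91%. The IIIc total was 114.6 and 123.7 TPM, of which Fgfr1 supplied 70.4% and 69.2%. Esrp1 and Esrp2, epithelial splicing factors known to favour the IIIb exon of Fgfr2, had 34.48 and 34.69 TPM and 48.59 and 47.91 TPM in replicates 1 and 2, and all 9 epidermis markers differed by less than 1.5-fold between the pools. The part of epithelial cell number in the IIIb level was not tested. In tissue with many cell types, fewer cells of a type and less RNA per cell cannot be told apart.

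A further splice choice concerns the first immunoglobulin-like domain, which is thought to hold the receptor in an inhibited state and can be skipped. The exon that encodes it is 267 bases long in Fgfr1 and Fgfr2 and 270 bases in Fgfr3. Among IIIb and IIIc transcripts, those with this exon held 65.7% and 64.1% of the TPM of Fgfr1 in replicates 1 and 2. For Fgfr2 the share was 2.25% and 7.19%. For Fgfr3 every expressed transcript of these forms had the exon, a share of 100% in both libraries. The shares of the 3 receptors lay further apart than those of the pools, but the spread between pools leaves out the uncertain split of reads among transcripts. The Fgfr2 share rests on Fgfr2-215, with 0.85 and 3.12 TPM. Its deposited intervals ran from 0.000998 to 4.56 TPM in replicate 1 and from 0.59 to 4.74 TPM in replicate 2. The 100% of Fgfr3 follows from which transcripts are annotated with the exon.

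Of the co-receptors and adhesion partners, Flrt2 and Flrt3, transmembrane proteins that bind FGF receptors, had 31.28 and 37.86 TPM and 31.18 and 33.99 TPM in replicates 1 and 2, and were level in replicate 1. The longer transcript of Flrt2, Flrt2-201, held 63.7% and 66.6% of its TPM, and Flrt3-202 held 89.4% and 86.3% of that of Flrt3. The adaptor Frs2 had 11.36 and 11.31 TPM. Its relative Frs3 had 3.50 and 3.61 TPM, and Frs2 exceeded it by 3.18-fold and 3.08-fold. All of these genes lay within the 1.5-fold limit between the pools.

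The feedback inhibitors were expressed throughout. Spry2, a Sprouty protein that blocks the path from receptor to ERK, had 53.92 and 59.34 TPM in replicates 1 and 2, and Dusp6, the phosphatase that removes the activating phosphates from ERK, had 59.52 and 53.60 TPM. They led the group and their ranges overlapped. Spry1 had 18.50 and 16.48 TPM and Spry4 12.81 and 12.02 TPM, so Spry2 held 65.4 ± 3.03% of the Sprouty TPM (SD, n = 2) and exceeded Spry1 by 2.90-fold and 3.59-fold. Spry1 had its TPM in a pair of transcripts, Spry1-201 with 9.92 and 7.59 TPM and Spry1-203 with 7.93 and 8.20 TPM, whose order differed between the libraries.

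The Spred proteins, which restrain Ras by way of neurofibromin, followed. Spred1 had 10.49 and 13.57 TPM, Spred2 5.99 and 7.27 TPM and Spred3 1.58 and 2.00 TPM in replicates 1 and 2. Each of the 3 was lower in replicate 1, by 1.21-fold to 1.29-fold, and their order was the same in both libraries. Spred1 exceeded Spred2 by 1.74-fold and 1.86-fold. Il17rd, also called Sef, a membrane protein that retains active ERK in the cytoplasm, had 2.69 and 3.38 TPM. All 8 feedback inhibitors with a row, Spry2 and Dusp6 included, summed to 165.5 and 167.7 TPM in replicates 1 and 2.

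The 3 Etv factors are ETS-family transcription factors, of which Etv4 and Etv5 were named above as raised by ERK signalling. All 3 were expressed, and the part of FGF signalling in their levels was not tested. Etv5 had 28.59 and 22.63 TPM in replicates 1 and 2, Etv1 had 19.31 and 15.02 TPM, and Etv4 had 8.73 and 8.86 TPM, with no overlap between neighbours. Etv5 exceeded Etv4 by 3.25-fold and 2.54-fold. Etv5-201 held 97.9% of the TPM of Etv5 in replicate 1 and 100% in replicate 2. For Etv4 the assignment of reads was less fixed: Etv4-202 had 4.88 and 2.80 TPM and Etv4-201 1.23 and 3.28 TPM, so the leading transcript differed. In all, 24 of the genes over 1 TPM had at least 2 transcripts, and 19 of them had the same leading transcript in both libraries. The other 5 were Etv1, Etv4, Fgf11, Fgf13 and Spry1.

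The spread between the pools was described for the 33 genes with a mean of at least 1 TPM, as the ratio of TPM + 0.1 in replicate 1 over replicate 2. This is the spread between replicates of 1 group and not an effect of a condition, and no test was possible. Replicate 1 was over 1.5-fold higher for 3 of 33 genes (9.09%), Fgf6, Fgf22 and Fgfr4, against 5.13% of all 15571 genes at that level. Replicate 2 was over 1.5-fold higher for 2 of 33 (6.06%), Fgf2 and Fgf20, against 2.83% of all genes. All 5 had a mean from 1 to under 10 TPM, where the pathway had 16 genes. At that level 18.8% of the 16 were higher in replicate 1, against 9.52% of all 6091 genes. In replicate 2 the shares were 12.5% and 6.44%. Of the 17 genes at 10 TPM or more, 0 were that far apart in either direction, where 2.31% and 0.517% of all 9480 genes at that level were higher in replicates 1 and 2, so a count of 0 is near the background. The median log2 ratio of the 33 genes was 0.01, against 0.02 for all genes, and it ranged from −1.01 for Fgf20 to 1.68 for Fgf22.

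**Figure D4:**
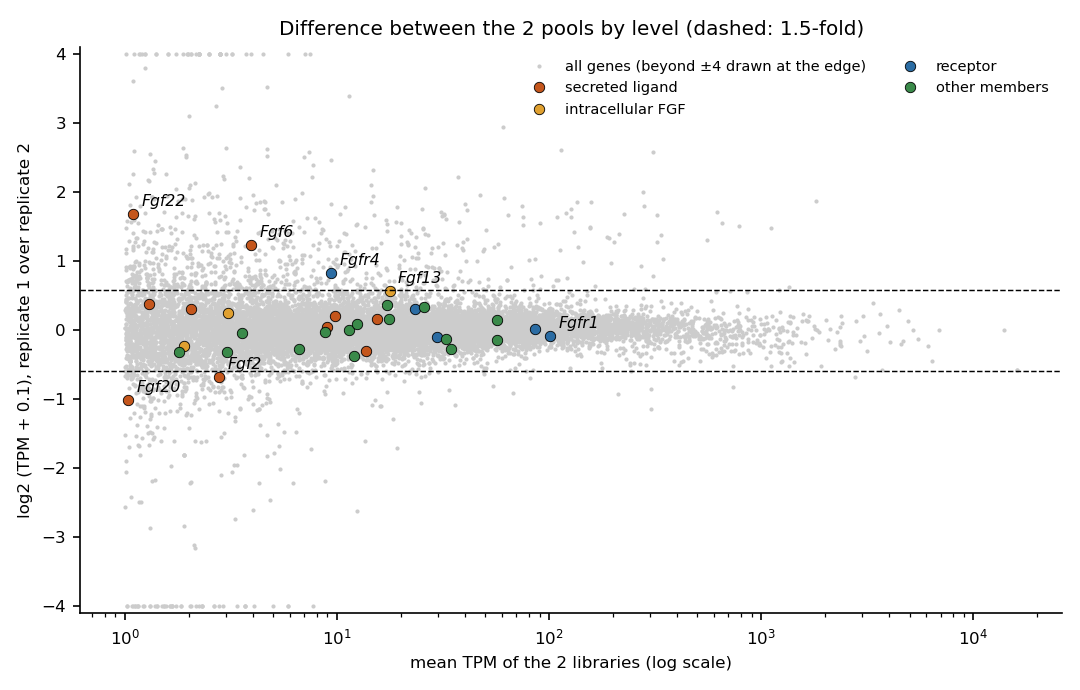
Log2 ratio of TPM + 0.1 in replicate 1 over replicate 2 against mean TPM (log axis) for all 15571 genes with a mean of at least 1 TPM (grey) and for the 33 FGF pathway genes at that level (coloured by role), with the 1.5-fold limits dashed. The 5 genes beyond the limits all lie under 10 TPM, and the genes at 10 TPM or more lie between the lines.

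The 5 genes rest on unequal evidence. Fgf6 had 140 counts in replicate 1 and 71 in replicate 2, a depth-scaled ratio of 2.35 with an exact 95% interval of 1.75 to 3.17, and its deposited TPM intervals, 4.55 to 6.34 and 1.78 to 2.83, did not overlap. Fgfr4 had 742 and 525 counts, a ratio of 1.68 (1.5 to 1.88), and intervals of 10.6 to 13.5 and 5.99 to 7.86 TPM. For Fgf22, with 15 and 5 counts, the ratio of 3.57 had an interval of 1.23 to 12.6. Fgf2 had 30 and 62.8 counts with a ratio of 0.57 (0.36 to 0.89), and Fgf20 had 20 and 48.7 counts with a ratio of 0.49 (0.27 to 0.84). The deposited TPM intervals of Fgf22, Fgf2 and Fgf20 overlapped between the libraries. These intervals cover counting error in the 2 libraries and not the variation between pools. Fgf2 shares 13.2% of its exonic bases with other genes, mainly Nudt6 on the opposite strand, and Fgf20 shares 12.0% with Micu3 on the opposite strand. Fgf22 shares 3.65% with Rnf126 on the opposite strand, which had 78.27 and 69.60 TPM. Spry1, Frs3 and Fgfr3 share 24.4%, 18.5% and 13.9%, mainly with opposite-strand genes that were at 0 in both libraries or, for the partner of Frs3, at 0.13 and 0.23 TPM. The sources used here do not say whether counting used strand, so reads there cannot be told apart from those of the partner. Fgfr2 shares 3.04% of its exonic bases with Ctbp2 on the same strand, which had 40.0 and 46.34 TPM in replicates 1 and 2. Strand could not tell the reads of that stretch apart.

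Fgf6 and Fgfr4, both known from skeletal muscle, were higher in the pool with the higher muscle markers. All 8 muscle markers at 1 TPM or more were over 1.5-fold higher in replicate 1, among them Myog with 191.73 and 96.25 TPM in replicates 1 and 2, Myod1 with 48.27 and 29.53 TPM, and Acta1 with 2862.13 and 779.06 TPM. Pax7, a marker of muscle precursors, had 0.77 and 0.31 TPM. The part of muscle content in the levels of Fgf6 and Fgfr4 was not tested. The other kinase receptors differed less, with fold values of replicate 1 over replicate 2 of 0.94 for Fgfr1, 1.01 for Fgfr2 and 0.94 for Fgfr3, against 1.77 for Fgfr4.

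Genes around the receptors were described from 3 further lists of chosen genes, which are not whole families. All 21 listed genes of the relay between receptor and ERK had at least 1 TPM in both libraries, against 62.7% of all protein-coding genes. Of the 21, 0 were over 1.5-fold higher in replicate 1 and 1 (4.76%) in replicate 2. Over all genes with a mean of at least 1 TPM the shares were 5.13% and 2.83%, so these counts are near the background. Among the highest were Map2k2, a kinase that activates ERK, with 140.12 and 134.94 TPM, Hras with 138.32 and 135.68 TPM and the adaptor Shc1 with 94.58 and 88.95 TPM. The lowest were Nf1, the Ras inhibitor neurofibromin, with 3.60 and 4.19 TPM and Sos1, the Ras activator, with 2.38 and 3.66 TPM, the only gene of the list over the limit. The relay genes had a median log2 ratio of −0.00079 between the pools, against 0.02 for all genes.

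The list of heparan sulfate proteins, their enzymes and other binding partners held 22 genes. All 22 had at least 1 TPM in both libraries, against 62.7% of all protein-coding genes, and 0 of the 22 were over 1.5-fold apart. With 5.13% of all genes higher in replicate 1 and 2.83% in replicate 2, a count of 0 is near the background. Gpc3, a glypican, had 628.93 and 631.81 TPM, above every gene of the FGF set. The syndecan Sdc1 had 240.66 and 253.24 TPM, Fgfbp1, a carrier that releases FGFs from the matrix, had 173.05 and 159.69 TPM, and Sulf2, an enzyme that trims sulfate from heparan sulfate, had 140.51 and 167.79 TPM. The lowest were Flrt1, the third member of the Flrt family, with 4.93 and 4.61 TPM and the carrier Fgfbp3 with 4.1 and 5.17 TPM.

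The last list held 19 genes known to answer ERK signalling or to encode factors that it activates. Of the 19, 17 (89.5%) had at least 1 TPM in both libraries, against 62.7% of all protein-coding genes. Of the 17, 0 were over 1.5-fold apart, which is near the background of 5.13% and 2.83% of all genes. Their median log2 ratio was 0.06. The highest were the cyclin Ccnd1 with 107.88 and 104.02 TPM, Ets2 with 86.56 and 89.23 TPM, Myc with 86.25 and 76.70 TPM and Ier2 with 69.05 and 66.32 TPM. The lowest were Fosl1 with 0.22 and 0.18 TPM and Etv2, an ETS factor of early blood vessels, with 0.05 and 0 TPM. The list shares Spred1 and Spred2 with the FGF set. These genes answer many signals besides FGF, and with 1 group their levels are a description of the tissue.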

How the data were processed

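Total RNA sequencing of embryonic limb was available from 1 group of 2 biological replicates, each a pool of embryos. The labels' protocols name Ambion mirVana extraction, added spike-ins and the manual of a SMARTer Ultra Low kit. The labels give mm10 as the assembly, and GENCODE M4 is named in the records deposited with the samples. The aligner, the counter and any use of strand were not given in the sources used here. Per the file headers the deposited gene and transcript tables hold expected counts (estimated read counts that need not be whole), TPM, posterior mean TPM with interval bounds, FPKM, and the percent of each gene's TPM in each transcript. The libraries held 35104685 and 41757268 expected counts (replicates 1 and 2), of which spike-ins took 2.29% and 2.26%. Low input and amplification add noise that depth does not remove.

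GENCODE M21 on GRCm38 gave symbols, exons and coordinates, matched on identifiers without version (42462 of 43346 genes had a symbol, and 173 of 174 transcripts of the FGF genes were found, 149 with the same length). Levels are TPM per library with mean and SD (n = 2). Ratios between libraries used TPM + 0.1 for genes with a mean of at least 1 TPM, and a gene over 1.5-fold apart was counted. There is no test and no p-value, because there is 1 group. Intervals of count ratios are exact binomial (Clopper-Pearson) at 95%, scaled by the summed counts. Transcripts of Fgfr1, Fgfr2 and Fgfr3 were classed by the mutually exclusive coding exon they hold, the upstream exon being IIIb. Exon identity came from global alignment in Biopython 1.88. Every gene of the set over 1 TPM is named, and of other lists the 4 highest, the 2 lowest and any gene over 1.5-fold apart. Some of the items that this rule names are not reported here. The genes and lists were chosen with earlier results of these data known. Alternatives were posterior mean TPM, FPKM, other thresholds and pseudocounts, TPM rescaled over mouse genes, CPM from rounded expected counts with TMM scaling (edgeR 4.0.16 in R 4.3.3), other classes of transcripts and each library alone. Scripts ran in Python 3.11.15 (pandas 2.3.3, numpy 2.4.6, scipy 1.17.1).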

Additional observations from a re-analysis of the deposited data

How the results depend on the processing

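No paired analysis was possible because there was 1 group of 2 libraries. The number of genes at 1 TPM or more in both libraries was 31 and stayed between 30 and 32 with FPKM, posterior mean TPM, rescaled TPM and a threshold of 0.5 TPM, and was 17 at a threshold of 10 TPM. In a single library it was 32 with either left out. The count over 1.5-fold higher in replicate 1 was 3, against 5 with no filter on low values and 0 at a mean of at least 10 TPM. The count higher in replicate 2 was 2, against 0 with a pseudocount of 1, 0 at a mean of at least 10 TPM, 1 at 2-fold and 1 with posterior mean TPM, where Fgf2 dropped out. The other alternatives, TMM scaling included, gave 2 or 3 genes higher in replicate 1 and 2 higher in replicate 2. The IIIc share of Fgfr1 was 97.66% with posterior mean TPM and 96.74% with expected counts, beyond its very small spread. That of Fgfr2 was 60.9% with expected counts, against 50.4% with TPM, since counts weight long transcripts. With each library left out in turn the share ran from 97.25 to 97.28% for Fgfr1, from 48.1 to 52.8% for Fgfr2 and from 56.5 to 61.3% for Fgfr3. On expected counts the log2 ratio of Fgf10 over Fgf7 was 0.23 and that of Fgf18 over Fgf9 was −0.38, each opposite in sign to TPM. Counting only IIIb and IIIc transcripts, an alternative chosen after seeing the data, moved the log2 ratio of Fgfr1 over Fgfr2 to 1.08. Posterior mean TPM was 1.47 times the TPM for Fgf1 and 1.38 times for Fgf2. Depth limits the genes under 1 TPM, several of which rest on under 10 counts.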
